A study of Danio rerio with 11 samples.

Results

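The green and red cone opsins of the zebrafish are encoded by 6 genes in 2 tandem arrays: 4 green genes, opn1mw1 to opn1mw4, and 2 red genes, opn1lw1 and opn1lw2. They were selected by symbol among 29387 genes with values, and all 6 were found. RNA sequencing covered 11 libraries of a study of srrm3, which encodes a splicing regulator whose eMIC domain promotes the inclusion of neuronal microexons. Eyes of fish mutated in that domain and eyes of their wild-type (WT) brothers and sisters were sampled on 4 occasions, 48, 60 and 72 hours (hpf) and 5 days (dpf) after fertilization, with 1 library per genotype and age. Retinae of adult WT fish (2 libraries) and heads of WT AB fish at 24 hpf (1 library) carried no mutation. Each eye library pooled 20 to 60 eyes at 48 to 72 hpf and 20 eyes at 5 dpf, and each adult library pooled 5 retinae, per the labels' protocols. The sources used here give no age for the adults and no sequence for the allele.

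A cone opsin is the light-sensing receptor of the cone outer segment, and the opsin that a cone makes sets the part of the spectrum it responds to. Zebrafish have UV, blue, green and red cones, and the green and red opsin genes arose by local duplication. In each array the copies share an upstream control region. Published in situ work in zebrafish places opn1mw1, opn1mw2 and opn1lw2 in the earlier-formed central and dorsal retina, and opn1mw3, opn1mw4 and opn1lw1 mainly in the later-formed periphery. Thyroid hormone is known to favour opn1lw1 over opn1lw2 in this species. In RefSeq annotation of assembly GRCz12tu the green genes follow one another in the order opn1mw1, opn1mw2, opn1mw3 and opn1mw4 between slc6a22.2 and synprb. The red genes opn1lw1 and opn1lw2 lie next to each other between mir726 and gnl3l.

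Library totals ranged from 37724575 to 92560511 counts. The 5 dpf and adult libraries were made with another RNA kit than the 48 to 72 hpf libraries, so age and library set cannot be told apart between those sets, whereas each mutant and WT pair lies within 1 set. The transcript of srrm3 was between 1.09 and 4.24 cRPKM in all eye and retina libraries of both genotypes, which makes it a weak check of the genotype labels. The summed cRPKM of 23 cone phototransduction genes other than opsins marked the samples as cone-containing from 60 hpf onward. It was 1003 to 17003 in the eye libraries of 60 hpf to 5 dpf and 54378 and 59788 in the adult retinae. Of the adult sums, 36619 and 39076 came from 1 gene, pde6ha. The median over the 23 genes was 114 cRPKM in 5 dpf WT eyes and 194 and 174 in the adult retinae. The 9 lens markers summed to 3.96 and 2.29 cRPKM in the adult retinae and to 2363 to 35229 cRPKM in the whole larval eyes. A pooled tissue value does not separate fewer cones from less opsin RNA per cone. Levels below are cRPKM, the authors' RPKM-type value, scaled by library depth and a fixed length per gene. The lengths ran from 887 bases for opn1mw3 to 1452 for opn1mw2, and the sources used here do not say how they were set. Comparisons of level between genes, including array shares and red to green ratios, depend on those lengths.

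Of the green genes, opn1mw1 was the main larval one. It had 3 counts in the 24 hpf heads (0.05 cRPKM) and 5 counts in each 48 hpf library (0.08 cRPKM in each). It stood at 150.00 cRPKM in mutant eyes and 250.61 in WT eyes at 60 hpf. The 72 hpf values were 291.76 and 286.05 cRPKM, in the same order of genotypes, and the 5 dpf mutant eyes had 583.92 while the WT eyes had 5761.12. The adult retinae had 124.51 and 249.21 cRPKM. The 5 dpf WT library was above all others, and both adult retinae were below the 60 hpf WT eyes.

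The neighbouring gene opn1mw2 was low to 72 hpf, higher at 5 dpf and highest in adults. It had 7 counts in the heads (0.10 cRPKM), and 4 and 8 counts in mutant and WT eyes of 48 hpf (0.06 and 0.12 cRPKM). Mutant and WT eyes had 9.84 and 7.81 cRPKM by 60 hpf, 11.20 and 10.55 by 72 hpf, and 166.16 and 112.33 by 5 dpf. The adult retinae had 2655.57 and 2089.55 cRPKM, above every larval library.

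The last genes of the green array were near 0 in every larval library and present in the adult retina. opn1mw3 was at 0 in the heads, and over the 8 larval eye libraries its highest level was 0.51 cRPKM, from 19 counts in the 60 hpf mutant eyes. Mutant and WT eyes had 0.03 and 0.05 cRPKM by 48 hpf, 0.51 and 0.19 by 60 hpf, 0.33 and 0.12 by 72 hpf, and 0.43 and 0.41 by 5 dpf. The adult retinae had 569.91 and 622.04 cRPKM. opn1mw4 had 0 counts in 6 of the 9 head and larval eye libraries, and 0 counts in a library allow up to 3. The others were the 72 hpf mutant eyes with 2 counts and the 5 dpf mutant and WT eyes with 3 and 4, and the adult retinae had 279.91 and 400.70 cRPKM.

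In the red array opn1lw2 was the earliest and most abundant gene. It had 58 counts in the 24 hpf heads (1.28 cRPKM), and the 48 hpf eyes had 2.16 cRPKM in mutants and 3.67 in WT fish. Mutant and WT eyes then had 501.27 and 728.06 cRPKM by 60 hpf, 849.82 and 960.29 by 72 hpf, and 1300.39 and 6117.17 by 5 dpf. The adult retinae had 2879.36 and 2212.44 cRPKM. Mutant eyes were lower than WT eyes at all 4 ages, by the least at 72 hpf. The other red gene, opn1lw1, appeared at 5 dpf. It had 0 counts in the heads and at 48 hpf and 4 to 6 counts in each library at 60 and 72 hpf (0.10 to 0.14 cRPKM). At 5 dpf it stood at 22.73 cRPKM in mutant eyes and 11.33 in WT eyes, from 2036 and 815 counts. The adult retinae had 1419.94 and 1176.45 cRPKM.

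**Figure D1:**
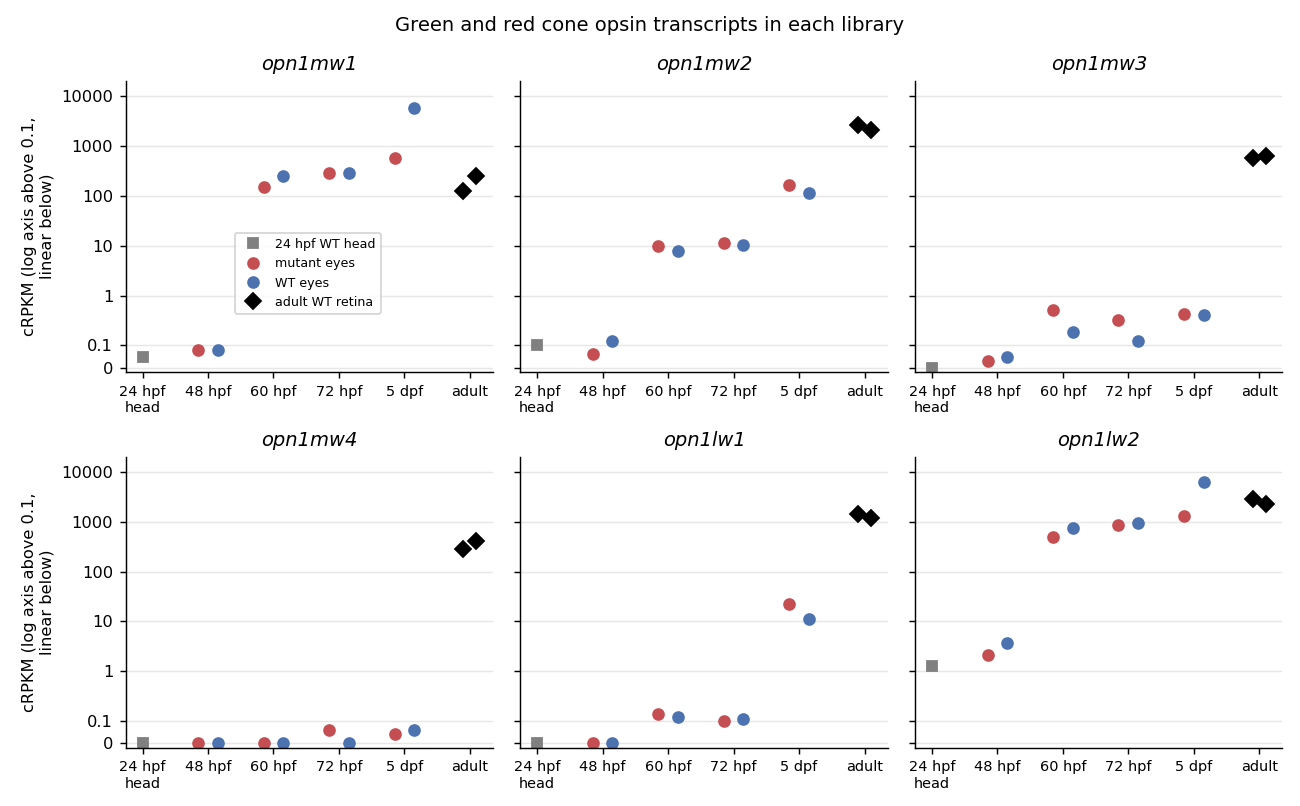
cRPKM of the 6 genes in each of the 11 libraries by age (logarithmic above 0.1, linear below), with mutant eyes left of WT eyes and 1 point per library. opn1mw1 and opn1lw2 stand highest in the 5 dpf WT eyes (5761.12 and 6117.17 cRPKM), while the other 4 genes stand highest in the adult retinae.

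From 72 hpf to 5 dpf opn1mw1 and opn1lw2 rose less in mutant than in WT eyes, unlike opn1mw2 and opn1lw1. At 5 dpf opn1lw2 and opn1mw1 were the 102nd and 180th most abundant of all transcripts in mutant eyes, and the 20th and 22nd in WT eyes. In mutant eyes opn1mw1 had 2.00-fold more cRPKM at 5 dpf than at 72 hpf, and opn1lw2 1.53-fold more. In WT eyes the corresponding ratios were 20.1 for opn1mw1 and 6.37 for opn1lw2. opn1mw2 had 14.8-fold more at 5 dpf than at 72 hpf in mutant eyes and 10.6-fold more in WT eyes. For opn1lw1 the ratios were 227 in mutant and 103 in WT eyes, from 4 counts at 72 hpf in each. No replicate stands behind any of these single-library ratios.

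A slope over the 8 larval eye libraries, fitted with genotype as a term, described the change from 48 hpf to 5 dpf per 2-fold increase of age. By the quasi-likelihood test of edgeR, with p-values adjusted by Benjamini-Hochberg over all genes, 1 of the 4 members that passed the filter on low counts rose, beside 18.4% of all 20872 genes tested. This was opn1mw2, with a log2 slope of 5.42 ± 1.02 (SE) and an adjusted p of 0.00559. opn1mw1 stood at 5.54 ± 2.14 (adjusted p = 0.0751), opn1lw2 at 4.23 ± 1.71 (adjusted p = 0.0859) and opn1mw3 at 1.42 ± 0.68 (adjusted p = 0.135). The increase of opn1mw1 and opn1lw2 was not a straight line on this scale, since the largest step of both lay between 48 and 60 hpf. The same held for opn1mw2, at 164-fold in mutant and 65.1-fold in WT eyes, from 4 and 8 counts at 48 hpf. Without the 48 hpf pair opn1mw1 rose by 3.62 ± 0.81 and opn1lw2 by 2.37 ± 0.52 (edgeR adjusted p = 0.0236 and 0.0234). By DESeq2 opn1mw1 and opn1lw2 passed as well (adjusted p = 0.0426 and 0.0354). Without the 5 dpf pair opn1mw2 no longer passed (edgeR adjusted p = 0.127). opn1lw1 and opn1mw4 were below the filter and have no test here. Of the 23 other cone genes 21 rose over the same ages and 0 fell, with a median log2 slope of 4.37, against −0.02 over all genes.

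The comparison of genotypes asked how mutation of the eMIC domain related to opsin transcripts. At 5 dpf the main larval genes were far lower in the mutant library, opn1mw1 by 9.87-fold and opn1lw2 by 4.70-fold, while opn1mw2 was 1.48-fold and opn1lw1 2.01-fold higher than in WT eyes. The green array summed to 750.55 cRPKM in mutant eyes, against 5873.92 in WT eyes, and the red array to 1323.12 and 6128.50. The share of all counts that fell in the 6 genes was 0.228% in mutant eyes, against 1.38% in WT eyes. In this pair 2 members were at least 2-fold lower, beside 2.85% of the 12560 genes with at least 5 cRPKM in the higher library. 1 member, opn1lw1, was at least 2-fold higher, beside 7.47% of them. These folds have no test, since each group is 1 library. The median mutant minus WT difference of those 12560 genes was itself 0.22 on the log2 scale in the 5 dpf pair. Relative to it the log2 differences, with a pseudocount of 1, were −3.52 for opn1mw1, −2.46 for opn1lw2, 0.34 for opn1mw2 and 0.72 for opn1lw1.

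At the younger ages the pairs were closer. At 48 hpf no member reached 5 cRPKM, with opn1lw2 highest at 3.67 in WT eyes, so none could be counted there. At 60 and 72 hpf only opn1mw1, opn1mw2 and opn1lw2 reached it, and 0 of them differed by 2-fold or more. Among all genes with at least 5 cRPKM in the higher library, 0.595% were that much higher and 0.261% lower in the 48 hpf pair. The shares were 1.58% higher and 0.321% lower in the 60 hpf pair, and 0.264% higher and 0.435% lower in the 72 hpf pair. At 60 hpf opn1mw1 was 1.67-fold lower in mutant eyes and opn1lw2 1.45-fold lower, whereas opn1mw2 was 1.26-fold higher. At 72 hpf the mutant to WT ratio was 1.02 for opn1mw1, 1.06 for opn1mw2 and 0.885 for opn1lw2. At 48 hpf only opn1lw2 had over 10 counts, with 88 in mutant and 157 in WT eyes.

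Over the 4 ages together the genotype difference did not pass the test for any of the 4 members tested. With 1 library per genotype and age, the error of this fit is the variation of that difference between ages. A difference seen mainly at 1 age raises that error, so this test can hardly detect it. The fitted log2 change was −1.36 ± 0.83 (SE) for opn1mw1, −1.06 ± 0.44 for opn1lw2, 0.11 ± 0.13 for opn1mw2 and 0.50 ± 0.47 for opn1mw3, with edgeR adjusted p of 0.880, 0.880, 0.895 and 0.882. This fit called 0% of the 20872 genes (0 genes higher and 0 lower), 1007 genes had an unadjusted p under 0.05, and DESeq2 called 8 higher and 42 lower. opn1lw1 and opn1mw4 were not tested in it. A term for the change of the genotype difference with age stood at −3.15 ± 0.92 per 2-fold increase of age for opn1mw1 and −1.55 ± 0.59 for opn1lw2, and neither passed (edgeR adjusted p = 0.418 and 0.474). That fit called 0.0958% of genes upward and 0.101% downward, and 0 of the 4 tested members. The term rests on the 5 dpf pair. Without that pair it was positive, at 1.77 ± 1.15 for opn1mw1 and 1.01 ± 0.65 for opn1lw2 (edgeR adjusted p = 1 for both). Without the 72 hpf pair it passed for both (−2.82, edgeR adjusted p = 3.2e-05, and −1.59, adjusted p = 0.00213), and without the 48 hpf pair for opn1lw2 (−2.20, adjusted p = 0.00354).

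The 5 dpf pair also differed in markers of other tissues. All 12 exocrine pancreas genes exceeded WT at least 2-fold in the mutant library, with a sum of 5429 cRPKM, against 33.7 in WT eyes. For skeletal muscle this held for 11 of the 12 genes that reached 5 cRPKM in the higher library. All 13 listed muscle genes summed to 3731 cRPKM in mutant eyes, against 1175 in WT eyes. The muscle sum at 60 hpf was 4450 cRPKM in mutant eyes, against 1081 in WT eyes. Rod markers summed to 852 cRPKM in mutant eyes, against 8362 in WT eyes, at 5 dpf, with 12 of 16 at least 2-fold lower. Lens markers summed to 23704 and 35229, Müller glia markers to 922 and 734, and pigment epithelium markers to 897 and 899. All 6 liver genes were higher in the mutant library, with sums of 189 cRPKM in mutant eyes and 12.4 in WT eyes. Bipolar cell markers summed to 182 and 244 cRPKM, and pineal and brain markers to 80.3 and 52.1. The part of carried-over tissue in the opsin differences was not tested.

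Other cone genes were lower in the 5 dpf mutant library along with opn1mw1 and opn1lw2. Of the 23 cone phototransduction genes, 22 reached 5 cRPKM, 18 of these were at least 2-fold lower and 0 were at least 2-fold higher. GNAT2, the cone transducin alpha subunit, had 353 cRPKM in mutant eyes, against 2649 in WT eyes. The UV opsin OPN1SW had 1444 and 9133 cRPKM, and the blue opsin opn1sw2 339 and 3500. Over all ages 0 of the 23 genes passed edgeR's test of genotype in either direction, and their median log2 change was −0.77, against −0.01 over all genes. The genes named by the fixed rule from this list were pde6ha and PDE6H, inhibitory subunits of the cone phosphodiesterase, at −2.00 (edgeR adjusted p = 0.880) and −1.76 ± 0.80, and the cyclic nucleotide-gated channel genes CNGA3 ENSDARG00000012297 and cngb3.1, at −0.28 ± 0.23 and 0.02 ± 0.54.

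Set against the mean of the 23 cone genes in the same library, opn1lw2 differed little between genotypes. Relative to that mean, opn1mw2 and opn1lw1 stood higher in 5 dpf mutant eyes than in WT eyes. opn1mw2 was above the mean in mutant eyes (2.19) and below it in WT eyes (−0.32). opn1lw1 was below the mean in both (−0.63 and −3.52). On the log2(cRPKM + 1) scale the 5 dpf mutant minus WT difference in this relative level was −0.28 for opn1lw2, −1.35 for opn1mw1, 2.51 for opn1mw2 and 2.89 for opn1lw1. Over the 4 pairs the mean was −0.27 ± 0.14 (SD) for opn1lw2, lower in mutant eyes in 4 of 4 pairs, with a two-sided exact permutation p of 0.125. That is the smallest p that 4 pairs can give, and adjusted over the 6 members it was 0.3. With GNAT2 alone in place of the list the mean for opn1lw2 was 0.0046 (exact permutation p = 1). For opn1mw1 the mean was −0.40 ± 0.66 and for opn1mw2 0.82 ± 1.18 (exact permutation p = 0.375 and 0.25). opn1mw3 and opn1mw4 at all larval ages, and opn1lw1 before 5 dpf, are near 0, so their means mostly carry the level of the cone list and are not given.

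**Figure D2:**
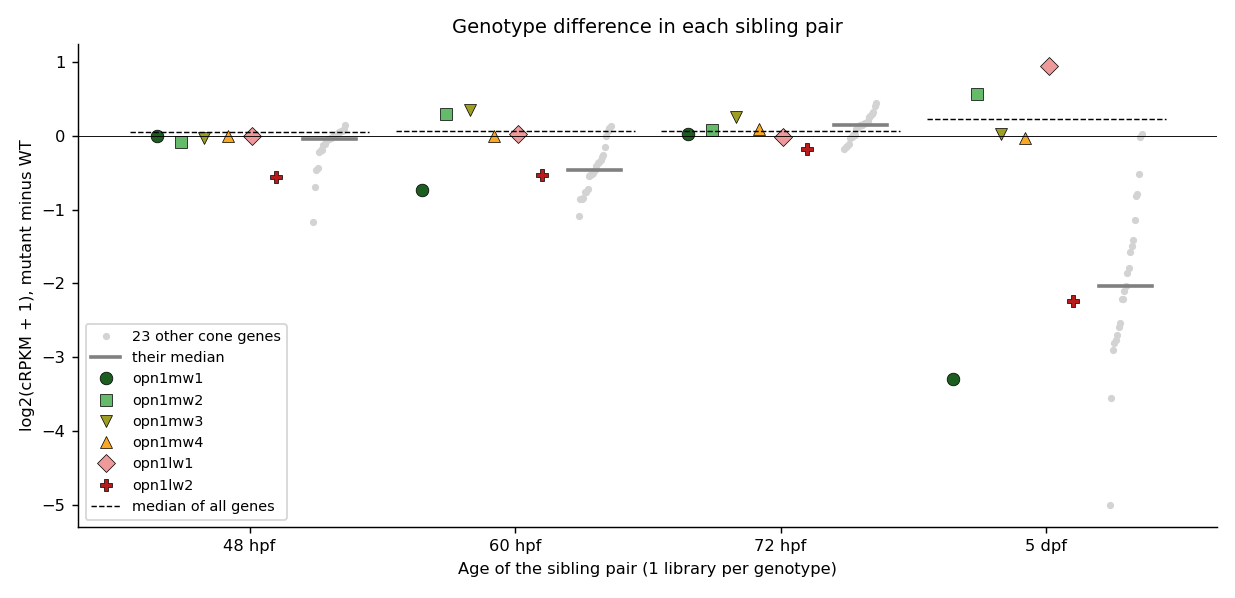
Mutant minus WT difference in log2(cRPKM + 1) in each pair by age, for the 6 opsin genes and 23 other cone genes (grey points, bar at their median). The dashed line, labelled median of all genes, covers genes with at least 5 cRPKM in the higher library of the pair. Each genotype and age has 1 library. At 5 dpf opn1mw1 (−3.30) and opn1lw2 (−2.23) lie among the lowered cone genes, whose median is −2.03, and opn1mw2 (0.56) and opn1lw1 (0.94) lie above 0.

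From 60 hpf to 5 dpf the makeup of each array changed little in WT eyes, and at 5 dpf it differed between the mutant and WT libraries. The opn1mw1 share of the green cRPKM was 93.5% in 60 hpf mutant eyes, against 96.9% in WT eyes. It was 96.2% in 72 hpf mutant eyes, against 96.4% in WT eyes, and 77.8% in 5 dpf mutant eyes, against 98.1% in WT eyes. opn1mw2 held most of the rest, 22.1% in 5 dpf mutant eyes, against 1.91% in WT eyes. Of the counts of opn1mw1 and opn1mw2 together, opn1mw2 took 23.2% in 5 dpf mutant eyes (95% Wilson interval 22.97 to 23.51%) and 2.03% in WT eyes (2.00 to 2.07%). opn1lw1 took 1.82% of the red counts in mutant eyes (1.74 to 1.90%) and 0.196% in WT eyes (0.183 to 0.210%). These intervals cover counting error only, and 1 library stands behind each value. The red to green ratio of summed cRPKM was 1.76 in 5 dpf mutant eyes, against 1.04 in WT eyes, and lay between 2.80 and 3.24 in the eyes of both genotypes at 60 and 72 hpf.

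Ratios within an array were formed from cRPKM + 1, so where a gene is near 0 the ratio depends on the pseudocount and on the level of the other gene. The log2 ratio of opn1mw2 to opn1mw1 was higher in mutant than in WT eyes by 3.86 at 5 dpf, by 1.04 at 60 hpf and by 0.05 at 72 hpf, and lower by 0.08 at 48 hpf, where both genes are near 0. Its mean of 1.22 ± 1.83 (SD, 4 pairs) did not pass an exact permutation test (p = 0.375, and 0.375 adjusted over the 4 ratios). The ratio of opn1lw1 to opn1lw2 was higher by 3.18 in the 5 dpf pair. In the other pairs opn1lw1 had at most 6 counts in a library, and the difference there, 0.16 to 0.56, mostly restates the lower opn1lw2 level of mutant eyes, so no test over the pairs is given. The ratios of opn1mw3 and opn1mw4 to opn1mw1 likewise had numerators near 0 at all larval ages and are not given.

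**Figure D3:**
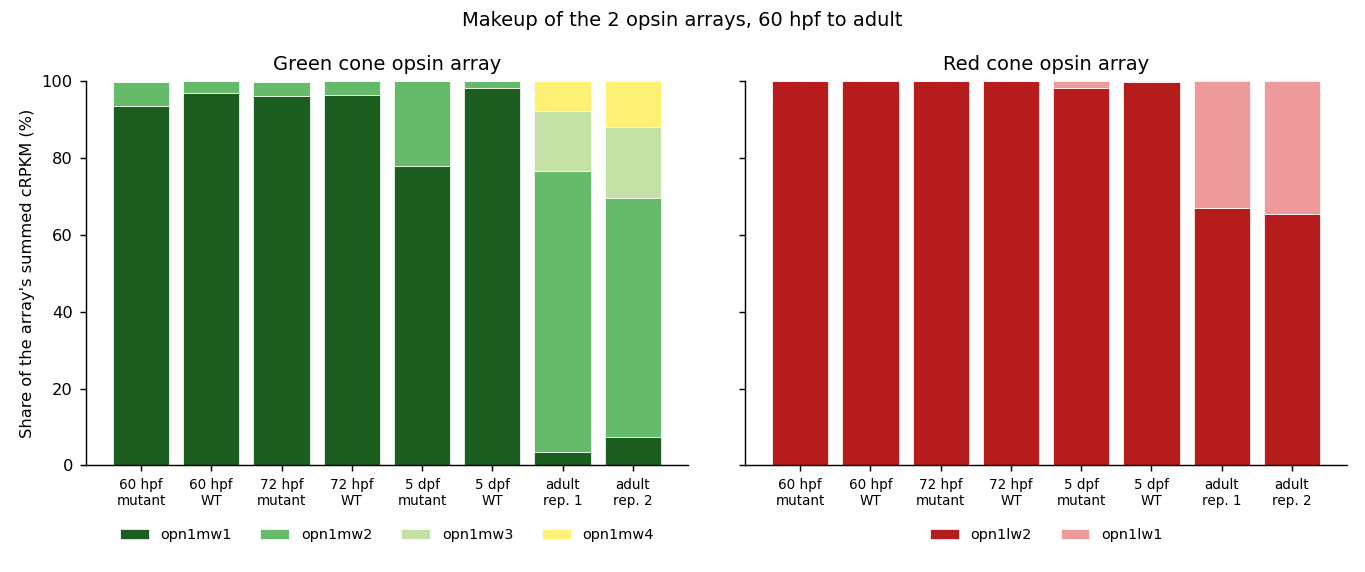
Share of each gene in the summed cRPKM of its array, in percent, from 60 hpf to adult, with mutant left of WT eyes and 1 bar per library. The larval arrays are almost all opn1mw1 and opn1lw2, opn1mw2 takes 22.1% in the 5 dpf mutant eyes, and the adult retinae show all 6 genes.

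Adult retinae and 5 dpf WT eyes used the arrays differently. By edgeR's test opn1mw2, opn1mw3, opn1mw4 and opn1lw1 rose in adults and opn1mw1 fell, while opn1lw2 did not pass. In a fit over all 11 libraries with a level for each age, tissue and genotype, edgeR called 4 of the 6 members higher in adults, beside 0.215% of 23235 genes, and 1 lower, beside 1.60%. opn1mw4 passed the filter on low counts only through the adult libraries, where it is high, so its call follows from the filter and is no separate support. Adult means were 2373 ± 400 cRPKM for opn1mw2, 596 ± 36.9 for opn1mw3, 340 ± 85.4 for opn1mw4 and 1298 ± 172 for opn1lw1 (SD, n = 2), against 112.33, 0.41, 0.06 and 11.33 in the 1 library of 5 dpf WT eyes. opn1mw1 averaged 187 ± 88.2 in adults, against 5761.12, and opn1lw2 2546 ± 472, against 6117.17. For each of the 6 genes the 1 value of 5 dpf WT eyes lay outside the 2 adult values. The share of all genes for which this holds was not computed, so it is no support for a change.

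The fitted log2 changes were 4.69 ± 0.72 (SE) for opn1mw2, 10.81 ± 0.76 for opn1mw3 and 7.13 ± 0.71 for opn1lw1 (edgeR adjusted p = 0.0464, 0.00492 and 0.0139). opn1mw4 stood at 12.67 ± 0.93, and its p is not given, since it passed the filter only through the adult libraries. For opn1mw1 the change was −4.62 ± 0.71 (edgeR adjusted p = 0.0460), and for opn1lw2 −0.98 ± 0.58 (edgeR adjusted p = 0.489). In plain ratios of cRPKM, adults had 21.1-fold more opn1mw2 and 115-fold more opn1lw1 than 5 dpf WT eyes, 30.8-fold less opn1mw1, and 2.12- and 2.76-fold less opn1lw2 in replicates 1 and 2. opn1mw3 and opn1mw4 had only 26 and 4 counts in the 5 dpf WT eyes. Scaled by library totals, the count ratio for opn1mw4 was 4488 in adult replicate 1 (95% counting interval 1752 to 16470) and 6424 in replicate 2 (2509 to 23580). For opn1mw3 it was 1406 (959 to 2152) and 1534 (1047 to 2349).

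These calls lean on the fit, which has 1 residual degree of freedom. None of the 5 held with library totals in place of TMM normalization (edgeR adjusted p from 0.0907 to 0.160). None held by limma on log2 cRPKM either (adjusted p from 0.222 to 0.267). Fits with 1 adult replicate left out were of another form, with a genotype term shared over stages. In them opn1mw1 stood at −3.46 without replicate 1 and −4.63 without replicate 2, and no call is drawn from them. The sign of all 6 changes was the same in the 9 alternative fits run. Age and tissue cannot be told apart here, since the 5 dpf eyes were whole and the adult samples were retinae.

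**Figure D4:**
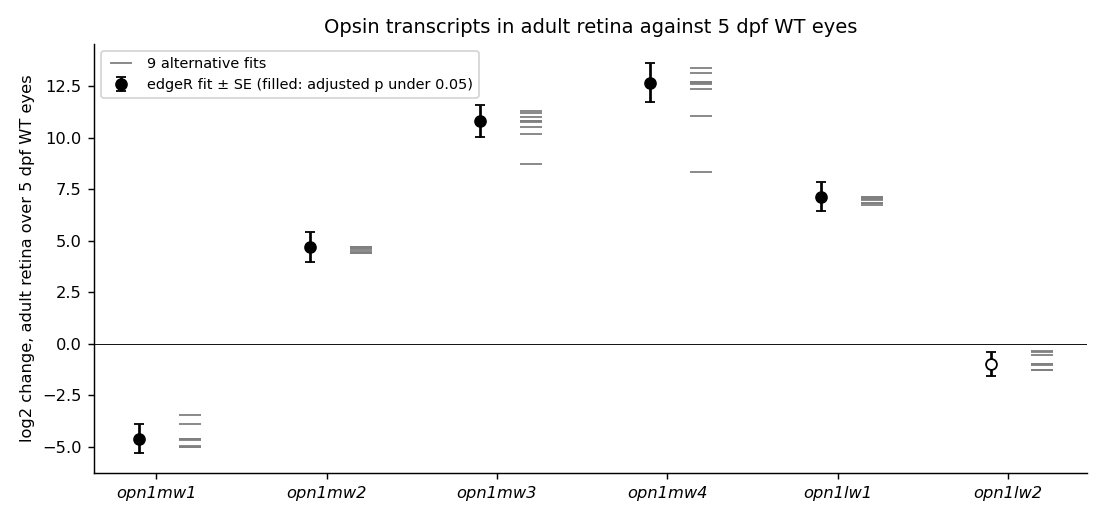
Fitted log2 change of the 6 genes, adult retina over 5 dpf WT eyes, from edgeR with its standard error (circles) and from 9 alternative fits (grey dashes). Each gene lies on 1 side of 0 in all fits, with opn1mw1 and opn1lw2 below it and the other 4 genes above.

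In the adult retina the order by mean cRPKM was opn1lw2, opn1mw2, opn1lw1, opn1mw3, opn1mw4 and opn1mw1. The first 2 overlapped between replicates, at 2879.36 and 2212.44 cRPKM for opn1lw2 and 2655.57 and 2089.55 for opn1mw2, while each of the other neighbours in the order was separate. With 2 libraries no permutation test of these gaps can pass. Within the green array opn1mw2 held 73.2% and 62.2% of the cRPKM in adult replicates 1 and 2, opn1mw3 15.7% and 18.5%, opn1mw4 7.71% and 11.9%, and opn1mw1 3.43% and 7.41%. In the red array opn1lw1 held 33.0% and 34.7%. The red to green ratio was 1.18 and 1.01, against 1.04 in the 5 dpf WT eyes. The summed green array averaged 3496 ± 190 cRPKM in adults (SD, n = 2), against 5873.92 in 5 dpf WT eyes, and the red array 3844 ± 644, against 6128.50. The replicates differed most for opn1mw1, at 2.00-fold more in replicate 2, and 14.0% of 10586 genes differed more between them.

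Near-identical copies can exchange reads, and the sources used here do not give how the authors placed such reads. In the 5 dpf WT eyes opn1mw1 had 568568 counts while opn1mw4 had 4 and opn1mw3 26, which is 0.000704% and 0.00457% of the opn1mw1 count. opn1lw1 had 0.0118% of the opn1lw2 count in the 72 hpf WT eyes, which had 33981 counts of opn1lw2. For opn1mw2 the ratio to the opn1mw1 count was 30.3% in 5 dpf mutant eyes, against 2.07% in WT eyes of that age, and 3.32% and 3.92% in WT eyes of 60 and 72 hpf. In the adult retinae opn1mw3 had 13.1% and 18.2% of the opn1mw2 count, and opn1mw4 6.44% and 11.7%. Sharing or loss of reads between any of these copies was not tested, so the level of each as a single gene is uncertain.

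Regulators of cone opsin choice were followed through a list of 38 genes. It includes thyroid hormone receptors and deiodinases, retinoid receptors, and photoreceptor transcription factors. The list also holds aanat2, which encodes an enzyme and is not taken as such a regulator, but the counts and medians below include it. None of the 38 genes passed edgeR's test of genotype, with a median log2 change of −0.08 against −0.01 over all genes. Named by the fixed rule were foxq2, a factor needed for blue opsin in zebrafish, at −0.75 ± 0.35, skor1a at −0.42 ± 0.30, the nuclear receptor gene NR2F1 ENSDARG00000017168 at 0.30 ± 0.18 and aanat2, the melatonin-making enzyme of pineal and retinal photoreceptors, at 0.41 ± 0.28 (edgeR adjusted p = 0.880 for each). At 5 dpf foxq2 had 5.19 cRPKM in mutant eyes, against 16.5 in WT eyes, and aanat2 41.9 and 12.1. THRB, the thyroid hormone receptor gene that red cones require, had 11.3 cRPKM in 5 dpf mutant eyes, against 17.2 in WT eyes. six7, which drives green opsin expression in zebrafish, had 36.5 and 62.0 cRPKM. In mutant eyes THRB and six7 were lower at 48 hpf and higher at 60 and 72 hpf. The 72 hpf values in mutant and WT eyes were 8.12 and 6.02 cRPKM for THRB, and 25.8 and 17.6 for six7. Of the 38 listed genes, 23 were lower and 15 higher in the 48 hpf mutant library, with 15 and 23 at 60 hpf. At 72 hpf 6 were lower and 32 higher, so the direction of THRB and six7 there was that of most listed genes. In the 5 dpf mutant library 21 were lower and 17 higher. THRB and six7 were chosen for their known roles after their values were seen.

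With larval age 10 of the 38 listed genes rose, beside 18.4% of all genes tested, and 5 fell, beside 18.2%. Their median log2 slope was 0.48 per 2-fold increase of age. aanat2 rose by 2.43 ± 0.38 and dio3b, a deiodinase that inactivates thyroid hormone, by 1.91 ± 0.39 (edgeR adjusted p = 0.00257 and 0.00739). ONECUT1 and NR2F1 ENSDARG00000052695 fell, at −1.40 ± 0.21 and −0.92 ± 0.17 (edgeR adjusted p = 0.00242 and 0.00507). In adult retinae against 5 dpf WT eyes 0.215% of all genes rose and 1.60% fell. From the list 1 gene rose, the enzyme gene aanat2, at 3.88 ± 0.54 (edgeR adjusted p = 0.0361). Another 1 fell, PRDM1, at −3.23 on the log2 scale (edgeR adjusted p = 0.0315), and it was named after its value was seen. DIO2, a deiodinase that activates thyroid hormone, stood at 3.50 ± 0.82 (edgeR adjusted p = 0.130). It had 18.9 and 10.0 cRPKM in the adult retinae and 1.54 in the 5 dpf WT eyes.

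Over the 11 libraries the members fell into like patterns, given as Pearson's r of log2(cRPKM + 1) between genes that share libraries, ages and scaling. opn1mw1 ran with opn1lw2 across the arrays (r = 0.962), and opn1mw3 with opn1mw4 (r = 0.998). opn1lw1 was about equally close to opn1mw2 (r = 0.935), opn1mw3 (r = 0.9325) and opn1mw4 (r = 0.923). Between neighbours r was 0.546 for opn1lw1 and opn1lw2, 0.661 for opn1mw1 and opn1mw2, and 0.827 for opn1mw2 and opn1mw3. Among 13857 other genes, the most like opn1lw2 were OPN1SW, the UV opsin (r = 0.997), the cone transducin gamma gene GNGT2 ENSDARG00000103543 (0.994) and glra4b (0.989). The most like opn1mw1 were neto2b (0.995), GRM6 ENSDARG00000025671 (0.986) and calb2b (0.978). For opn1mw2 they were ENSDARG00000077945, RPRM ENSDARG00000024006 and arl4ab, and for opn1lw1 nlrc11, CAVIN2 ENSDARG00000027611 and chrdl2, all at 0.993 to 0.996. opn1mw3 and opn1mw4 had the same 3 nearest genes, zgc:194221, CPLX4 ENSDARG00000059486 and mstna. Outside the adult retinae these 3 genes had at most 0.05 cRPKM, and opn1mw3 and opn1mw4 at most 0.51. Every r of opn1mw3 or opn1mw4, with these genes or with other members, thus rests on the adult against the other libraries. It shows no finer likeness. Of the genes most like opn1lw1, nlrc11 and chrdl2 reached 5 cRPKM only in the adult retinae, while CAVIN2 ENSDARG00000027611 did so in every library. CPLX4, a complexin of the ribbon synapse, had 49.8 and 75.7 cRPKM in the adult retinae and at most 0.03 in every other library.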

How the data were processed

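Polyadenylated RNA was sequenced in 11 libraries. The deposited files give whole-number read counts per Ensembl gene and an RPKM-type value (cRPKM), both computed by the authors. The build was danRer10, per the submitters' processing notes. The sources used here give no aligner, no counting rule and no meaning for the letter c in cRPKM. Deposited counts and cRPKM together gave fixed lengths per gene, from 887 to 1452 bases for the 6 opsins.

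Of 31848 listed genes 29387 had values. A gene name table gave 25682 of these a symbol, many in human form. Counts were tested in R 4.3.3 with edgeR 4.0.16 (TMM, filterByExpr, robust quasi-likelihood, Benjamini-Hochberg over all genes tested, threshold 0.05). The SE was derived from the log2 change and the F statistic and is approximate. The genotype fit had stage as a factor, with 3 residual degrees of freedom, the age term 2, the slope 5 and the adult fit 1. The sibling libraries entered the slope as independent. Single pairs have no test. Exact two-sided sign-flip permutation over the 4 pairs tested ratios of log2(cRPKM + 1). DESeq2 1.42.0, limma 3.58.1, other scalings and filters, pseudocounts of 0.1 and 10 and left-out libraries were alternatives. Scripts were tested on simulated data.

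The members, lists and tests were chosen with earlier results of these data known. All 6 members are named. From each list the 2 largest fitted rises and falls at a mean cRPKM of at least 1 were eligible, and the 3 most alike genes needed 5 cRPKM in at least 2 libraries. Lists beyond the cone and regulator genes are given by their sums. No label says that the adult libraries came from separate fish, so p-values measure the spread between these samples, which may be technical.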

Additional observations from a re-analysis of the deposited data

Results flagged for a closer look

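The heads of WT fish at 24 hpf entered no comparison of their own, and 2 of the 6 genes had more reads there than the 3 that a count of 0 allows. opn1lw2 had 58 counts (1.28 cRPKM) and opn1mw2 had 7 counts (0.10 cRPKM), in 1 library with no replicate.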

How the results depend on the processing

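Of 191 values of single genes recomputed in the fits, 189 kept their direction and 156 also their side of the threshold. The exceptions in direction were opn1mw1 and opn1lw2 in the age term without the 5 dpf pair (1.77 and 1.01), where leaving out pairs gave −4.13 to 1.77 and −2.20 to 1.01. Of 76 recomputed ratio tests 75 kept their direction, and opn1lw2 relative to GNAT2 alone turned to 0.0046. The cause was not tested. Counts of called genes moved more. For genotype, DESeq2 called 8 higher and 42 lower, no filter 3 higher, a filter on the design matrix (chosen after seeing the data) 1 higher, and leaving out pairs gave 0 to 3 lower. For the age term, DESeq2 called 118 and 178, no filter 99 and 70, linear hours 141 and 189, limma 0 and 0 with either pseudocount, library totals 6 lower, the filter on the design matrix 49 higher, and leaving out pairs 0 to 378 higher and 0 to 505 lower. For the larval slope, leaving out pairs gave 292 to 3863 higher and 276 to 3659 lower, with 2445 lower without the 48 hpf pair and the fewest without the 5 dpf pair. For adults, DESeq2 called 590 and 1301, RLE 4 and 116, library totals 0 and 0, no filter 214 and 992, limma 0 and 0 with either pseudocount, and a shared genotype term 4073 and 3853. With that term and 1 adult replicate, assumed to vary like the other groups, 4840 and 5581 genes were called higher and 5319 and 6267 lower. Under RLE scaling opn1mw1 and opn1mw2 (adjusted p = 0.110 and 0.0973), and by DESeq2 opn1mw4 (0.213), did not pass in adults. No paired analysis was possible because the groups compared share fewer than 2 replicate numbers, so none was made by replicate number. Siblings were instead compared within stage, in the genotype fit and in the ratio tests. Depth limits opn1mw3, opn1mw4 and opn1lw1 before 5 dpf, where no library had more than 19 counts of any of them.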
